A study of Mus musculus with 31 samples.

Results

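The 9 genes described here are the mouse genes Spink3, Ly6d, Syt8, Ache, Fam25c, Crym, Defb1, Ido1 and Cyp2e1, out of 22609 genes in each of 2 deposited tables. They were chosen by their levels at day 6 of pregnancy or at parturition, which were higher in Stat5-null glands, with 0 working alleles of the transcription factor genes Stat5a and Stat5b, than in wild-type glands, with 4. The ratio between these groups is therefore a description with no test.

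Poly(A) RNA from mammary tissue without its lymph nodes was sequenced in mice of strain 129SV::FVB/N::C57BL/6 at 2 stages, day 6 of pregnancy (18 listed samples) and the day of parturition, less than 12 hours after delivery (13 listed samples). Genotypes are named by the Stat5 alleles that still work. Null glands (Stat5abfl/fl;MMTV-Cre, 0 alleles) lost both genes only where the MMTV-Cre transgene of line A, active in mammary epithelium, was expressed, so cells without Cre kept them. The other mutants carried germline alleles in all cells: A glands (Stat5abnull/Stat5b-) had 1 Stat5a allele, B glands (Stat5abnull/Stat5a-) 1 Stat5b allele, AB glands (Stat5ab+/null) 1 of each and BB glands (Stat5a-/-) 2 Stat5b alleles. AABB glands were wild type with 4 alleles, a name that the series also uses for floxed mice without Cre. The sample tags of A and B glands share numbers, with the letter R for A and L for B, and the labels do not say what these tags mean. The labels used here give no age of the mice.

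Each table holds 1 value per genotype and gene, the authors' mean over 3 listed samples at day 6 and over 3 (B) or 2 (all others) at parturition, in FPKM, fragments scaled by transcript length and by the mapped reads of the library. No value per sample was at hand, so there is no error, no test and no p-value. The number of reads behind each value is not known. Levels below are FPKM scaled within a stage to a common median. Ratios are log2 of scaled FPKM + 1, which understates the change of genes at low levels, and a gene is counted as higher or lower at a 2-fold difference. A difference between 2 means may therefore lie within the spread between mice. The tables were scaled apart, so levels of the stages are set side by side and not compared by a ratio.

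STAT5 proteins are activated by JAK2 downstream of the prolactin receptor and bind DNA at a palindrome, TTCNNNGAA, near genes such as the caseins. In the pregnant gland they are needed for the formation and differentiation of milk-secreting alveoli. The 9 genes have different known roles. Spink3 encodes a secreted trypsin inhibitor of the Kazal type, Defb1 a secreted beta-defensin and Ly6d a surface protein of the Ly6 family. Syt8 belongs to the synaptotagmins, which act in membrane trafficking, and Ache encodes acetylcholinesterase. Crym encodes mu-crystallin, which binds thyroid hormone in the cytosol. Ido1 encodes the interferon-inducible enzyme that opens the tryptophan ring at the start of the kynurenine pathway, and Cyp2e1 a cytochrome P450 that oxidises ethanol, acetone and other small molecules and is best known from liver. Fam25c encodes a small protein whose role is little known.

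Promoter windows of 250 bases before to 50 bases after an annotated start (RefSeq, GRCm38.p6) were at hand for 4 of the 9 genes, with 6 windows in all. They are shown because the study turns on a factor that binds TTCNNNGAA, and the window of the beta-casein gene Csn2, whose level was far lower in Null glands, is shown for contrast. The letters TTCNNNGAA and TATAAA were searched on both strands, and matches are in capitals. Of these 6 windows, 0 held TTCNNNGAA and 2 held TATAAA. Among all 32851 windows in the reference, 8.3% held TTCNNNGAA and 13.6% held TATAAA. The windows are Fam25c, chr14:34355344-34355643 on the minus strand, with TATAAA beginning at −29 from the start, Cyp2e1, chr7:140763569-140763868 on the plus strand, with TATAAA at −31, Ache, chr5:137288004-137288303 on the plus strand, and the most upstream of the Syt8 windows, chr7:142434600-142434899 on the plus strand. Csn2 lies at chr5:87699376-87699675 on the minus strand, with TTCTTGGAA at −93.
Fam25c: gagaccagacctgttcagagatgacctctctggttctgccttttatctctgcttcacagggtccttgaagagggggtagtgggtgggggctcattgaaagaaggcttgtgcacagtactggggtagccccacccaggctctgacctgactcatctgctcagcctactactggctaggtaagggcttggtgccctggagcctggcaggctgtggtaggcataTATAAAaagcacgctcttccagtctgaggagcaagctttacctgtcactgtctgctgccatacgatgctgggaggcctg
Cyp2e1: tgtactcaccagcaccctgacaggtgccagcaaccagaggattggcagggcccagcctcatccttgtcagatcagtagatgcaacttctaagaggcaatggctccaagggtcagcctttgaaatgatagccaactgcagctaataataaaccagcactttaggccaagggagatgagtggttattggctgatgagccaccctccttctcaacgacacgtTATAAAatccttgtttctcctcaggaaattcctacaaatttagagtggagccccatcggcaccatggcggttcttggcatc
Ache: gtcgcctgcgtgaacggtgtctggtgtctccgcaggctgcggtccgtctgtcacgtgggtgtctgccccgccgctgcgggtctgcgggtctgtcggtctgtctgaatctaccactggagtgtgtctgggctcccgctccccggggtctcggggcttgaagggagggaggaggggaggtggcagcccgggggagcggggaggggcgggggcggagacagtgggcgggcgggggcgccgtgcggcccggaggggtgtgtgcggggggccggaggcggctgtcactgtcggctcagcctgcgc
Syt8: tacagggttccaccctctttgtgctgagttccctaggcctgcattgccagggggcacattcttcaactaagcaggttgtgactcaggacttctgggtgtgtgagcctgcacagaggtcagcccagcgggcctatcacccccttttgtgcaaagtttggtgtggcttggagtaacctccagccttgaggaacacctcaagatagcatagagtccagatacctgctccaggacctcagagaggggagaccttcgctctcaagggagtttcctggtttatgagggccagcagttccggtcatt
Csn2: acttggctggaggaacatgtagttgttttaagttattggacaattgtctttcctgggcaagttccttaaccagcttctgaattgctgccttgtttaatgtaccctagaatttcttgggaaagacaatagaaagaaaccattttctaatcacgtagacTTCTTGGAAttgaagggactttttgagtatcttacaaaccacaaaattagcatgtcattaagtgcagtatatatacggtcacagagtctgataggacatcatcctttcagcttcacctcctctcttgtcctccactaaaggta
A match of letters is a description of the window and not a binding site, and its absence says nothing of sites elsewhere. Csn2 itself, the contrast, was at 4.96 FPKM in Null glands against 2959 FPKM in AABB glands at day 6, and at 504 FPKM in Null against 243805 FPKM in AABB at parturition.

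The tissue is whole gland and not isolated epithelium, so fewer cells of a type and less RNA per cell cannot be told apart. Luminal epithelial markers were present in all groups, with none of the 18 at 0 throughout, and their summed level was 2041 FPKM in Null, 1457 in A, 1619 in B, 1167 in AB, 1681 in BB and 2503 FPKM in AABB glands at day 6. Their sum at parturition was 1617 FPKM in Null and 2800.3 to 3276 FPKM in the other groups. Adipocyte markers (18 genes) summed to 53853 FPKM in Null against 24496 in AABB at day 6, and to 34613 FPKM in Null against 7758 in AABB at parturition. Skeletal muscle markers (14 genes) ranged from 51.2 FPKM in B to 8330.1 in AB at day 6 and from 10.8 FPKM in BB to 4429.7 in Null at parturition. Stat5a was at 13.6 FPKM in Null, 15.9 in A, 12.5 in B, 13.4 in AB, 3.67 in BB and 33.6 FPKM in AABB at day 6. At day 6 Stat5b had 9.04 FPKM in Null, 10.6 in A, 12.3 in B, 11.7 in AB, 14.9 in BB and 16.7 in AABB. Between A and B, both genes differed by less than 2-fold at both stages. These are values per gene, and whether they include reads outside the deleted exons is not known.

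At day 6, 9 of the 9 genes were at least 2-fold higher in Null than in AABB glands, beside 2.21% of all 13367 genes compared. At parturition 8 of 9 were, all but Spink3, beside 19.1% of 13061 genes. The genes were chosen by this difference at day 6 or at parturition, so nothing is read from either count. None of the 9 was 2-fold lower at either stage, beside 2.09% of genes at day 6 and 10.7% at parturition. Over all genes these counts depended on the scaling. At day 6, 296 genes were higher and 279 lower in Null, or 226 and 339 without scaling and 394 and 176 with scaling by luminal markers. At parturition the numbers were 2489 and 1400, or 3741 and 783 without scaling, 3671 and 811 at a constant sum without milk genes and 2080 and 2191 with scaling by luminal markers. The median log2 ratio of all genes at parturition was 0.10, and 0.50, 0.48 and −0.16 under those 3 scalings, so list counts at parturition are relative to it. The median log2 ratio over the 9 was 3.10 at day 6 (all genes 0.00) and 2.35 at parturition (all genes 0.10). All 9 genes reached the level required for the comparison, 1 FPKM in at least 2 groups, at day 6, and 6 did at parturition, where Spink3, Syt8 and Ache were too low. They filled ranks 1, 3, 4, 5, 6, 7, 8 and 10 of the day 6 ratios, while Ido1 ranked 118 there and 1 at parturition. The ion cotransporter gene Slc12a2 (209.8 FPKM in Null, 18.3 in AABB) and the chemokine gene Cxcl17 (11.2 in Null, 0.904 in AABB) filled the other places. Cyp2e1 had the lowest ratio within these ranks, at 2.59, and the next genes were Ltf at 2.58 and Agt at 2.44, both outside the set.

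The description "highest in Null" held for 8 of the 9 genes at day 6 and for 7 of the 9 at parturition. Ido1 was highest in B glands at both stages, and Cyp2e1 at parturition was highest in A and B glands. The plot of levels by genotype shows how the genes differ from each other in the groups with 1 and 2 alleles.

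**Figure D1:**
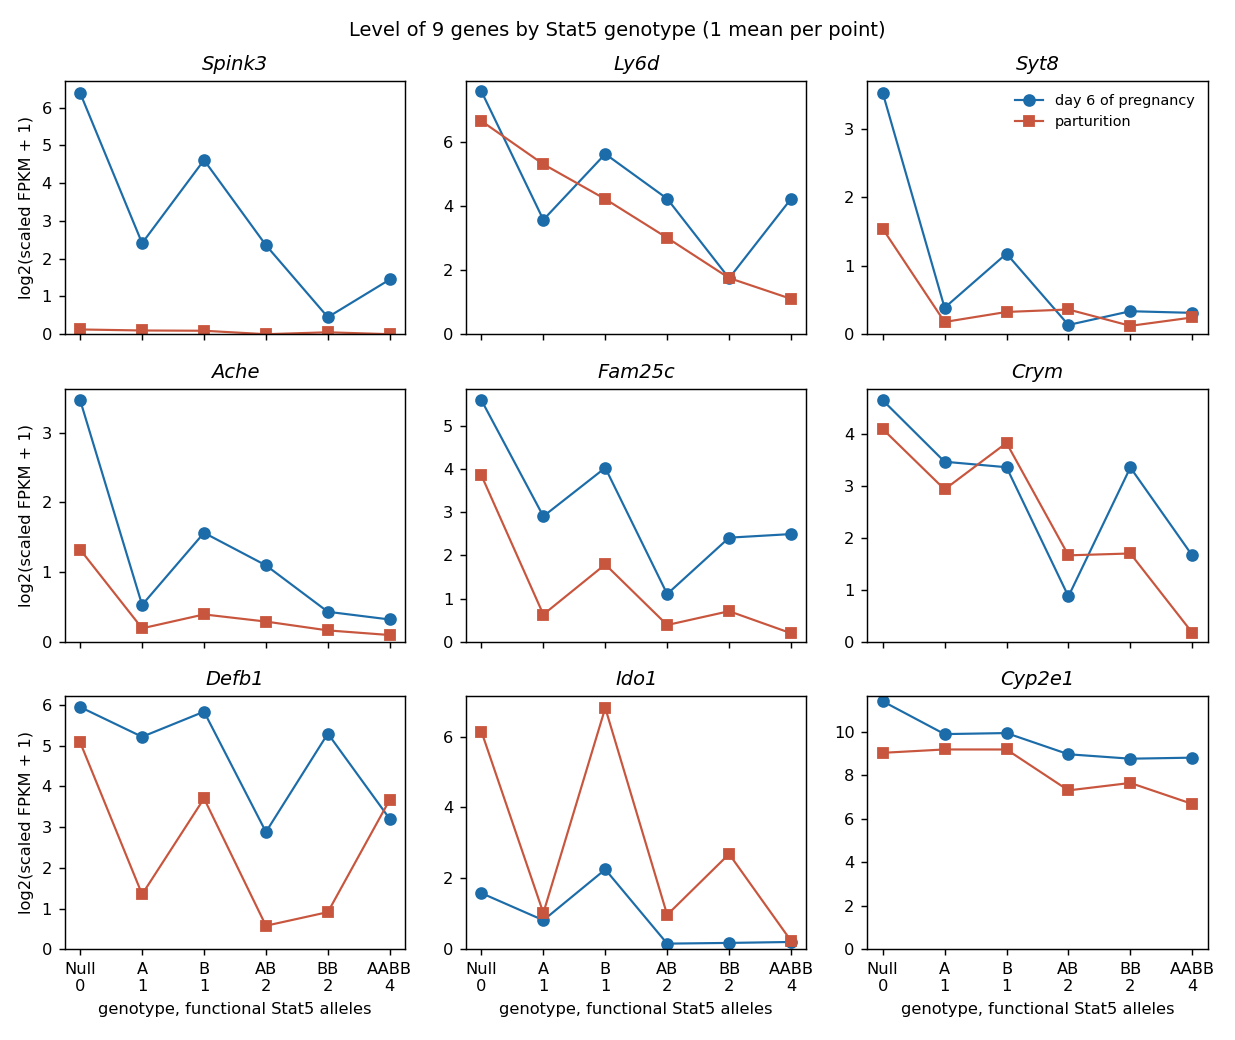
Level of each of the 9 genes, as log2(scaled FPKM + 1) on the vertical axis, in the 6 genotypes ordered by their number of working Stat5 alleles, with blue circles for day 6 of pregnancy and red squares for parturition, each point being 1 deposited mean with no error. At day 6 the Null point is the highest in 8 panels, and Ido1 is highest in B, at 3.76 FPKM against 2.00 in Null.

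Spink3, the secreted trypsin inhibitor, had 82.5 FPKM in Null, 4.31 in A, 23.4 in B, 4.12 in AB, 0.366 in BB and 1.73 FPKM in AABB glands at day 6. Null stood highest, B was next, and BB was the only group under 1 FPKM. The Null to AABB ratio was 4.94 on the log2 scale, the highest among all genes compared. At parturition no group exceeded 0.091 FPKM, and AB and AABB were listed at 0, so the gene was close to absent from these libraries in all genotypes. Of the other SPINK and Kazal-domain genes, 2 of 9 measured could be compared at day 6, and 0 were 2-fold higher or lower in Null. Fstl1, a secreted glycoprotein gene with a Kazal-like domain, was at 65.0 FPKM in Null against 76.5 in AABB, and Reck, an inhibitor of matrix metalloproteases, at 3.32 FPKM in Null against 2.65 in AABB. At parturition 2 of 3 were higher in Null, Fstl1 at 90.9 against 18.7 FPKM in AABB and Reck at 6.48 against 2.00 FPKM.

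Ly6d, the Ly6 family surface protein known from B-lineage progenitors and stratified epithelium, had 187.7 FPKM in Null, 10.8 in A, 48.0 in B, 17.6 in AB, 2.35 in BB and 17.6 FPKM in AABB glands at day 6. AB and AABB were level, A lay below both, and BB was the lowest, with a log2 ratio to AABB of −2.47. At parturition the level was 98.5 FPKM in Null, 38.2 in A, 17.5 in B, 7.0 in AB, 2.36 in BB and 1.14 FPKM in AABB. There AABB was the lowest group and A stood above B, the opposite of day 6. The Null to AABB ratio was 3.35 at day 6 and 5.54 at parturition, where only Ido1 had a higher ratio among the genes compared. Of the other Ly6 and uPAR-domain genes, 1 of 13 was 2-fold higher and 0 lower in Null at day 6, namely Ly6a (Sca-1), at 194 FPKM in Null against 85.1 in AABB. At parturition 4 of 11 were higher and 1 lower. Ly6a was at 250.9 FPKM in Null against 72.1 in AABB, Ly6c1, an endothelial and lymphocyte antigen gene, at 163 against 44.0, and Ly6g6d was the lower one, at 1.07 FPKM in Null against 5.45 in AABB. T and B lymphocyte markers summed to 39.1 FPKM in Null, 166 in A, 244 in B, 18.5 in AB, 39.7 in BB and 15 FPKM in AABB at day 6. Their part in the level of Ly6d was not tested.

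Defb1, the beta-defensin, and Crym were the genes of the 9 that were 2-fold above AABB in each of A, B and BB at day 6. Defb1 had 60.7 FPKM in Null, 36.2 in A, 56.0 in B, 6.37 in AB, 38.3 in BB and 8.19 FPKM in AABB glands at that stage. B was close to Null, and A and BB kept much of the excess of Null over AABB (53.3% in A and 57.3% in BB), while AB and AABB were low. At parturition it had 32.8 FPKM in Null, 1.55 in A, 12.0 in B, 0.493 in AB, 0.882 in BB and 11.8 FPKM in AABB. B and AABB were then level, and A, AB and BB were below AABB, with log2 ratios of −2.32, −3.09 and −2.76. Among the other beta-defensins and epithelial antimicrobials, 2 of 9 were higher and 2 lower in Null at day 6. Cxcl17 and Ltf (lactoferrin, an iron-binding milk protein, 308 FPKM in Null against 50.6 in AABB) were higher, and Pglyrp1 (3.07 against 10.3) and Slpi (18.2 against 48.8) lower. At parturition 0 of 11 were higher and 5 lower (2 and 4 without scaling), among them Lpo (lactoperoxidase, 0.191 FPKM in Null against 88.2 in AABB) and Lcn2 (lipocalin, 227 against 4338). Defb1 was thus on the opposite side from Ltf at parturition, where Ltf was at 148 FPKM in Null against 1034 FPKM in AABB.

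Syt8, the synaptotagmin, had 10.6 FPKM in Null, 0.308 in A, 1.26 in B, 0.098 in AB, 0.262 in BB and 0.241 FPKM in AABB glands at day 6. Only Null and B exceeded 1 FPKM. At parturition Null was again well above the rest, at a lower level, with 1.91 FPKM in Null, 0.132 in A, 0.253 in B, 0.285 in AB, 0.088 in BB and 0.185 FPKM in AABB. Ratios among the groups other than Null rest on levels near or below 1 FPKM. Of 10 other synaptotagmins compared, 0 were higher and 1 lower in Null at day 6 (Syt9, a calcium sensor of vesicle release, 0.455 FPKM in Null against 3.19 in AABB). At parturition 4 were higher and 3 lower, including Syt15 (3.08 against 0.510) and Syt9 (0.456 against 14.1). Tnni2, a fast skeletal muscle troponin gene that follows Syt8 in the RefSeq gene order, was at 58.2 FPKM in Null, 558.6 in AB and 3.82 to 13.2 FPKM in the other groups at day 6. At parturition Tnni2 was at 369 FPKM in Null, 231 in A, 208 in B, 1.77 in AB, 0.628 in BB and 38.0 FPKM in AABB. Ctsd, on the other side of Syt8, had a log2 ratio of Null to AABB of 0.33 at day 6 and −0.81 at parturition. Tnni2 and the muscle markers were thus highest in AB at day 6, where Syt8 was lowest, and highest in Null at parturition, where Syt8 was highest. The part of muscle tissue in the level of Syt8 was not tested.

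Ache, acetylcholinesterase, followed nearly the same pattern. At day 6 it had 10 FPKM in Null, 0.442 in A, 1.96 in B, 1.14 in AB, 0.347 in BB and 0.248 FPKM in AABB glands, and at parturition 1.5 FPKM in Null, 0.143 in A, 0.312 in B, 0.222 in AB, 0.119 in BB and 0.069 FPKM in AABB. Null and then B were the highest groups at both stages. Over the 10 log2 ratios to AABB, Syt8 and Ache had the smallest root mean square difference of all pairs of the 9, at 0.35, and the largest was 3.68 for Ly6d and Defb1. Outside Null at day 6, Syt8 did not exceed 1.91 FPKM and Ache did not exceed 1.96 FPKM. The pseudocount of 1 draws ratios at such levels towards 0, so the small difference partly reflects low levels in both genes. The butyrylcholinesterase gene Bche was the only 1 of 5 other cholinergic genes that was higher in Null at day 6, at 23.6 FPKM against 10.4 in AABB. At parturition 4 of 4 were higher and 0 lower, among them Bche (26.5 against 2.98) and the muscle acetylcholine receptor subunit gene Chrnb1 (8.97 against 2.07). Muscle markers were higher in Null at both stages, in 11 of 14 genes at day 6 and 14 of 14 at parturition. In AB glands at day 6, where the muscle markers were highest, Ache was at 1.14 FPKM. That was below Null and B and above A, BB and AABB. The part of muscle tissue in the level of Ache was not tested.

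Crym, mu-crystallin, had 24.0 FPKM in Null, 10 in A, 9.23 in B, 0.830 in AB, 9.20 in BB and 2.16 FPKM in AABB glands at day 6. A, B and BB formed a middle level, and AB was the lowest group. At parturition it had 16.0 FPKM in Null, 6.62 in A, 13.1 in B, 2.16 in AB, 2.24 in BB and 0.128 FPKM in AABB. Here AB and BB were level, and the level was lower with each step in allele number. Of 11 other genes of thyroid hormone handling, 0 were higher and 1 lower in Null at day 6 (Dio2, the deiodinase that activates thyroid hormone, 0.539 FPKM against 2.23 in AABB). At parturition 3 were higher and 1 lower (3 and 0 without scaling). Thra, a thyroid hormone receptor gene, was at 29.3 FPKM in Null against 7.54 in AABB, and Thrsp, a lipogenesis gene that responds to thyroid hormone, was at 1865 against 3736 FPKM.

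Ido1, the tryptophan-degrading enzyme, had 2.00 FPKM in Null, 0.764 in A, 3.76 in B, 0.117 in AB, 0.133 in BB and 0.154 FPKM in AABB glands at day 6. At parturition it had 69.6 FPKM in Null, 1.03 in A, 111 in B, 0.961 in AB, 5.44 in BB and 0.180 FPKM in AABB. B exceeded Null at both stages, BB came after them at parturition, and groups with a Stat5a allele stayed at 1.03 FPKM or less. The tandem paralogue Ido2 did not exceed 0.092 FPKM in any group. Of the other genes of the tryptophan and kynurenine pathway, 0 of 11 were higher and 1 lower in Null at day 6 (Tph1, which starts serotonin synthesis, 0.180 FPKM against 20.7 in AABB). At parturition 0 of 10 were higher and 2 lower (1 and 1 without scaling), Tph1 (0.650 against 3.06) and the amino acid transporter gene Slc7a5 (6.15 against 73.0). Genes of the interferon gamma response, which is known to induce Ido1, had 0 of 14 higher and 0 lower in Null at day 6. At parturition 10 of 14 were higher and 0 lower, with the guanylate-binding protein gene Gbp2 at 53.2 FPKM in Null, 21.6 in A, 28.8 in B, 16.3 in AB, 17.7 in BB and 11.1 FPKM in AABB. Between A and B, 0 of the 14 differed 2-fold at either stage, with list medians of −0.25 at day 6 and −0.14 at parturition. Few genes did so at all, 18 higher and 33 lower in A of 13367 at day 6. At parturition 47 were higher and 45 lower of 13061. A count of 0 in 14 is therefore near the share over all genes. The interferon gamma gene itself, Ifng, was at 0.030 FPKM in Null, 0.098 in A, 0.297 in B, 0.054 in AB, 0.029 in BB and 0.040 FPKM in AABB at day 6, highest in B, and at 0.083 FPKM or less in all groups at parturition. The part of the interferon response in the level of Ido1 was not tested. Macrophage and dendritic cell markers summed at parturition to 381 FPKM in Null, 549 in A, 658 in B, 487 in AB, 355 in BB and 157 FPKM in AABB. At day 6, 2 of 13 of these markers were 2-fold lower in A than in B, the dendritic cell genes Ccr7 (3.16 FPKM in A, 12.0 in B) and Ccl22 (0.806 in A, 11.5 in B), with a list median of −0.11 on the log2 scale. At parturition 0 of 10 differed 2-fold, with a median of −0.18. The part of these cells in the level of Ido1 was not tested.

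Cyp2e1, the cytochrome P450, was the most abundant of the 9 genes at both stages on the per-length FPKM scale. Its level at day 6 was 2686 FPKM in Null, 943 in A, 975 in B, 496 in AB, 431 in BB and 445 FPKM in AABB glands. A and B were level with each other, and so were the groups with 2 and 4 alleles. At parturition it was 519.5 FPKM in Null, 578 in A, 578 in B, 156 in AB, 198 in BB and 101 FPKM in AABB, so that Null no longer exceeded the groups with 1 allele. Of 9 other genes of the P450 family and its partners, 1 was higher and 0 lower in Null at day 6 (0 and 0 without scaling), Por, the reductase that supplies electrons to P450 enzymes, at 201 FPKM against 94.1 in AABB. At parturition 3 of 6 were higher and 0 lower, Cyp2d22 (19.7 against 2.51), Por (108 against 24.5) and Cyp2j9 (5.43 against 1.12). Adipocyte markers were also higher in Null glands. Of 18, 8 were higher and 0 lower in Null at day 6, with a median log2 ratio of 0.98 (14 and 0 with scaling by luminal markers), and 15 were higher and 0 lower at parturition, with a median of 2.46. Cfd (adipsin, secreted by adipocytes) was the second nearest to Cyp2e1 among the genes searched, at 13616 FPKM in Null against 4549 in AABB at day 6, with a root mean square difference of 0.48 on the log2 scale. The ratio of Cyp2e1 at day 6 (2.59) was larger than that of the adipocyte sum (1.14). At parturition the ratio of Cyp2e1 was 2.35 and that of the adipocyte sum 2.16. Such a sum is carried by its most abundant genes. Single adipocyte markers reached 2.04 (Adrb3) at day 6 and 4.28 (Lep) at parturition. The part of adipocytes in the level of Cyp2e1 was not tested.

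Fam25c had 47.2 FPKM in Null, 6.48 in A, 15.3 in B, 1.15 in AB, 4.31 in BB and 4.63 FPKM in AABB glands at day 6, and 13.4 FPKM in Null, 0.548 in A, 2.46 in B, 0.308 in AB, 0.633 in BB and 0.147 FPKM in AABB at parturition. Null and then B were again the highest groups, and AB was the lowest at day 6, with a log2 ratio to AABB of −1.39. Its neighbour in the RefSeq gene order, Sncg (gamma-synuclein, a gene also active in fat), was at 700.5 FPKM in Null against 345 in AABB at day 6 and at 759 against 43.3 FPKM at parturition. Glud1, on the other side, had log2 ratios of 0.66 and 0.99. Of 14 neighbours of 8 of the genes, counted without a filter on level, 3 were 2-fold higher in Null at day 6 (Sncg, Tnni2 and Ufsp1). At parturition 3 were (Lynx1, Sncg and Tnni2), and Ufsp1, next to Ache, was lower (−1.13). All genes compared had shares of 2.21% and 19.1% higher.

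**Figure D2:**
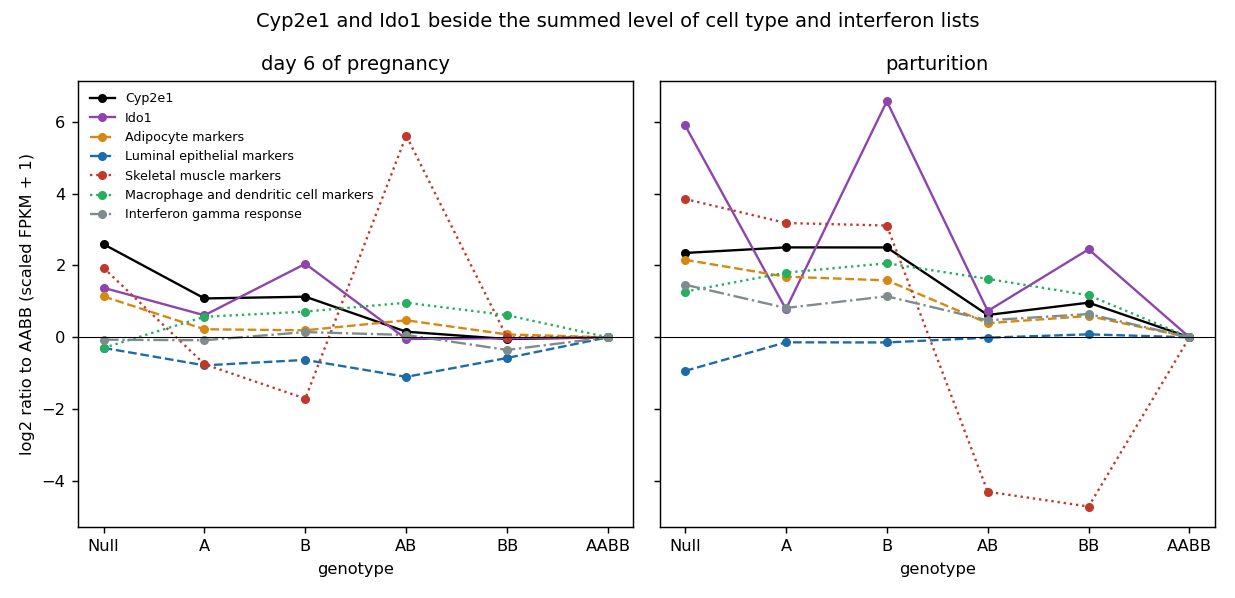
Log2 ratio to AABB of Cyp2e1, Ido1 and the summed level of 5 gene lists, on the vertical axis, in the 6 genotypes at day 6 (left) and parturition (right), each point being a ratio of 2 deposited means of scaled FPKM + 1. Adipocyte markers lie at 1.14 in Null at day 6 below Cyp2e1 at 2.59, muscle markers peak in AB at day 6 at 5.61, and at parturition Ido1 stands at 0.79 in A and at 6.57 in B.

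The response to 1 allele was described by the ratios of A and B to AABB and to Null, which share those columns with the choice of the genes. A high Null level was part of that choice, so nothing is read from the counts below Null. The shares beside them are over all genes compared, which were not chosen this way. At day 6, 3 of 9 genes were 2-fold above AABB in A, Crym, Defb1 and Cyp2e1 (5 with luminal scaling or a pseudocount of 0.1), beside 7.01% of all genes, and 8 of 9 in B (all but Syt8), beside 7.56%. Set against Null, 7 of 9 were 2-fold lower in A, beside 4.67%, and 7 of 9 in B (4 with luminal scaling), beside 3.95%, Defb1 and Ido1 being the exceptions in both. At parturition 3 of 9 were above AABB in A, Ly6d, Crym and Cyp2e1 (5 with a pseudocount of 0.1), beside 17.3%, and 5 of 9 in B (Ly6d, Fam25c, Crym, Ido1 and Cyp2e1), beside 18.2%. Against Null, 7 of 9 were lower in A at that stage, all but Spink3 and Cyp2e1, beside 3.19%, and 4 of 9 in B, namely Ly6d, Syt8, Fam25c and Defb1, beside 2.86%.

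The share of the Null excess over AABB that remained puts these values on a linear scale. With the Stat5a allele of A glands at day 6, it was 3.20% for Spink3, 1.99% for Ache, 4.36% for Fam25c and 0.642% for Syt8, and Ly6d lay below AABB. With the Stat5b allele of B glands it was 26.9% for Spink3, 17.4% for Ache, 25.1% for Fam25c, 9.89% for Syt8 and 17.9% for Ly6d. Crym (36.0% in A, 32.4% in B) and Cyp2e1 (22.2% in A, 23.7% in B) kept like shares with either allele at day 6, and Ido1 kept 33.1% in A and 195.8% in B. At parturition Crym kept 40.8% in A and 81.9% in B, and Ly6d 38.1% in A and 16.8% in B. Cyp2e1 was there above the Null level with either, at 114.1% in A and 113.9% in B, and Ido1 kept 1.23% in A and 159.6% in B.

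With 2 alleles fewer of the genes stayed above AABB. These ratios, too, share the Null or AABB column with the choice of the genes, and nothing is read from the counts below Null. At day 6, 0 of 9 genes were 2-fold above AABB in AB (4 with scaling by luminal markers, 2 with a pseudocount of 0.1), beside 6.78% of all genes, and 2 of 9 in BB (Crym and Defb1), beside 5.12%. Against Null, 9 of 9 were lower in AB, beside 3.75%, and 8 of 9 in BB, all but Defb1, beside 4.47%. At parturition 2 of 9 were above AABB in AB (Ly6d and Crym), beside 10.2%, and 2 of 9 in BB (Crym and Ido1), beside 8.07%. There, 8 of 9 were lower than Null in AB, beside 7.41%, and 8 of 9 in BB, beside 8.74%, with Spink3 the exception in both.

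**Figure D3:**
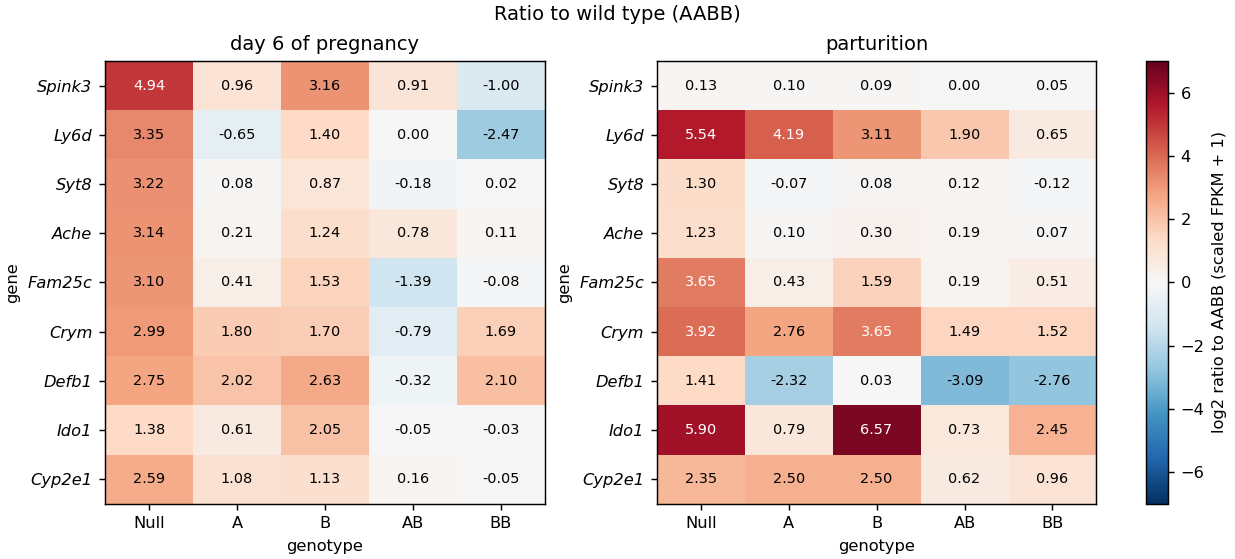
Log2 ratio to AABB of the 9 genes (vertical axis) in the 5 other genotypes (horizontal axis) at day 6 (left) and parturition (right), printed in each cell and coloured red where higher and blue where lower than AABB. At day 6 the B column holds higher values than the A column for 8 genes, Crym being the exception at 1.80 in A and 1.70 in B, and Defb1 turns blue at parturition in A (−2.32), AB (−3.09) and BB (−2.76).

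The order from 0 to 1, 2 and 4 alleles was taken over the mean of A and B and the mean of AB and BB. At day 6, 5 of 9 genes had levels that did not increase at any step (Spink3, Ache, Crym, Defb1 and Cyp2e1), beside 1.92% of all genes and 23.3% of the other 287 genes that were 2-fold higher in Null. At parturition 7 of 9 did, all but Defb1 and Cyp2e1, beside 18.1% of all genes and 56.1% of the other 2483 genes higher in Null. Ido1 is among them only through the mean of A (1.03 FPKM) and B (111 FPKM), since B alone exceeded Null (69.6 FPKM). Spink3, Syt8 and Ache are among them too, though below the level required of the genes behind these shares. The choice of genes fixed that the first of these steps lies above the last, so nothing is read from these counts.

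Comparisons among A, B, AB and BB do not use the Null and AABB columns that the choice of the genes names. That choice was made with earlier results of these data known, so these counts are descriptions too. Syt8 and Ido1 at day 6 and Fam25c at parturition reached 1 FPKM only in Null and B. Between A and B, which have equal allele numbers but differ in the isoform, 5 of 9 genes were 2-fold lower in A at day 6, beside 0.247% of all genes and 2.09% of the other 287 genes that were higher in Null. The genes were Spink3 (−2.20 on the log2 scale), Ly6d (−2.05), Ido1 (−1.43), Fam25c (−1.12) and Ache (−1.04). None was higher in A. Crym (0.11) and Cyp2e1 (−0.05) hardly differed between A and B, and Syt8 (−0.79) and Defb1 (−0.62) were lower in A by less than 2-fold. The median of the 9 was −1.04. Over all genes 18 were higher and 33 lower in A, or 31 and 25 with scaling by luminal markers, under which Fam25c was at −0.96. Among the marker lists at day 6, 4 of 12 T and B lymphocyte markers and 2 of 13 macrophage and dendritic cell markers were lower in A than in B, 5 of 14 muscle markers were higher in A, and 0 of 18 luminal and 0 of 18 adipocyte markers differed 2-fold. Their part in these differences was not tested.

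At parturition, 3 of 9 were 2-fold lower in A than in B, beside 0.345% of all genes and 0.725% of the other 2483 genes higher in Null. They were Ido1 (−5.78), Defb1 (−2.35) and Fam25c (−1.16). Ly6d was the 1 gene of the 9 that was higher in A than in B (1.09), beside 0.36% of all genes. Crym was lower in A by 0.89 on the log2 scale, and Cyp2e1 (0.00), Ache (−0.20), Syt8 (−0.15) and Spink3 (0.01) lay within 2-fold, the last 3 of them at low levels. Over all genes 47 were higher and 45 lower in A, or 59 and 28 with scaling by luminal markers, under which Fam25c was at −0.99. At parturition 9 of 14 milk protein genes and 2 of 14 muscle markers were higher in A than in B, 3 of 13 hormone-sensing epithelial markers were lower, and 0 of 18 luminal, 0 of 18 adipocyte and 0 of 10 macrophage and dendritic cell markers differed 2-fold. Ido1 and Fam25c were lower in A than in B at both stages, and Ly6d changed sides.

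**Figure D4:**
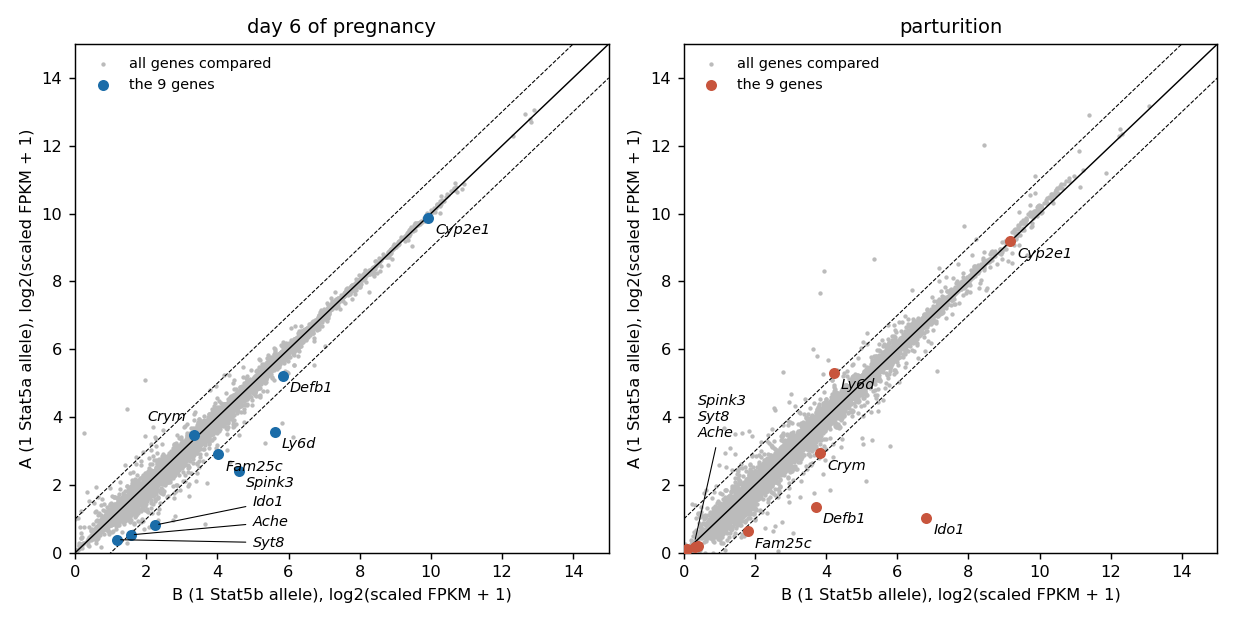
Level in A glands (vertical axis) against level in B glands (horizontal axis), both as log2(scaled FPKM + 1), at day 6 (left) and parturition (right), with grey points for all genes compared, coloured points for the 9 genes, a solid line of equality and dashed lines at 2-fold. At day 6 Spink3, Ly6d, Ido1, Fam25c and Ache lie below the lower dashed line, and at parturition Ido1 lies farthest below it (−5.78) while Ly6d lies above the upper one (1.09).

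Between AB and BB, with 2 alleles each, 2 of 9 genes were 2-fold higher in AB at day 6, beside 1.73% of all genes, namely Ly6d (2.47) and Spink3 (1.91). Lower in AB were 3 of 9, Crym (−2.48), Defb1 (−2.41) and Fam25c (−1.31), beside 0.988%. At parturition Ly6d alone was higher in AB (1.25), beside 1.06%, and Ido1 alone lower (−1.72), beside 0.72%. Ly6d was higher in AB than in BB at both stages. Skeletal muscle markers differed between these groups at day 6, with a summed level of 8330.1 FPKM in AB and 169 FPKM in BB, and their part in these differences was not tested.

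Most of the genes were lower in BB than in B glands, which differ by 1 Stat5b allele. At day 6, 6 of 9 were 2-fold lower in BB, beside 4.59% of all genes, with Spink3 (−4.16) and Ly6d (−3.87) ahead of Ido1 (−2.07), Fam25c (−1.62), Cyp2e1 (−1.18) and Ache (−1.13). Crym was level, at 9.20 FPKM in BB and 9.23 FPKM in B. At parturition 6 of 9 were lower, beside 4.62%, with Ido1 (−4.12) ahead of Defb1 (−2.79), Ly6d (−2.46), Crym (−2.13), Cyp2e1 (−1.54) and Fam25c (−1.08). AB glands have 1 Stat5b allele more than A glands, and 3 of 9 genes were 2-fold lower in AB than in A at day 6 (6 were 2-fold apart with a pseudocount of 0.1), beside 4.11%, namely Crym (−2.59), Defb1 (−2.34) and Fam25c (−1.80). At parturition 3 of 9 were lower in AB, beside 3.26%, Ly6d (−2.29), Cyp2e1 (−1.88) and Crym (−1.27).

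For each of the 9, the 3 nearest genes outside the 9 were taken over the 10 log2 ratios to AABB, among 12757 genes compared at both stages. Likeness is the root mean square difference, a description over columns that share AABB. Syt8 was nearest to Tmprss2, a membrane serine protease gene (0.58), Enho (0.59) and Mlph (0.67). Ache was nearest to Enho (0.56), Slc1a3, a glutamate transporter gene (0.61), and Pof1b (0.63). Fam25c was nearest to Arhgap40 (0.66), Acsbg1 (0.76) and Wfdc2 (0.77), and Crym to Papln (0.95), Agpat9 (0.95) and Il13ra1 (0.99). Those of Cyp2e1 were Slc43a1 (0.47), Cfd (0.48) and Mboat1 (0.52), the closest found for any of the 9. The other 4 genes had larger differences to their nearest genes. These were Net1 (1.16), Slc12a2 (1.23) and Slc1a3 (1.26) for Spink3, and Ptn, the pleiotrophin gene (1.18), Cxcl15 (1.49) and Gipc2 (1.56) for Ido1. For Ly6d they were Foxa1, a luminal pioneer factor gene (1.3), Plin4 (1.35) and Prelp (1.48), and for Defb1 Mir186 (1.33), Scd1 (1.42) and Slco2a1 (1.46). Among the 9 themselves, Spink3 was nearer to Ache (1.00) and Syt8 (1.13) than to Net1. Spink3, Ache and Syt8 were all below the level required for the comparison at parturition, which draws their ratios there towards 0. Foxa1, nearest to Ly6d, was at 44.1 FPKM in Null against 20.8 in AABB at day 6 and at 46.9 against 1.01 FPKM at parturition.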

How the data were processed

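Expression was measured as poly(A) RNA of whole mammary tissue in 31 listed samples, with TRIzol extraction and Illumina sequencing per the labels' protocols, which speak of 2 mice per genotype. The submitters' processing notes name CASAVA, TopHat and build mm9. The program that gave the FPKM and its annotation are not given in the sources used here. The deposited FPKM values are the authors' means per genotype. In columns of 3 listed samples, 57.95% to 62.63% of values of at least 1 FPKM have the decimals that a mean over 3 values gives, against 0.1% to 0.17% in columns of 2. No other sample columns were present. Read depth is unknown, so no counting error is given. The FPKM summed to 433958 to 528347 per column at day 6 and to 432576 to 1190588 at parturition, where milk genes made up 0.63% in Null and 64.6% in AABB.

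Columns of a stage were scaled by the median of their ratios to each gene's geometric mean, using the 11733 (day 6) and 10864 (parturition) genes that reached 1 FPKM in every column. Factors were 0.916 to 1.07 at day 6 and 0.794 to 1.13 at parturition. Genes with at least 1 deposited FPKM in at least 2 columns were compared, 13367 and 13061, while counts of the 9 genes always cover all 9. Ratios are log2 of scaled FPKM with a pseudocount of 1, counted from 2-fold. The steps were tested on simulated data. The planned limma tests, a replicate block and leaving out replicates need a value per sample and were not run. Alternatives were no scaling, scaling by luminal markers or to a constant sum without milk genes, a pseudocount of 0.1, no filter, and a floor of 5 FPKM.

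The 9 genes and the 19 gene lists were chosen with earlier results of these data known. The text names the 9 genes, up to 4 genes per list with the largest ratio of Null to AABB, the 3 genes outside the 9 most like each of them, the other genes among the 10 highest ratios, and genes that check composition. The genes ranked just outside, gene neighbours, Cfd, Ccr7, Ccl22 and Ifng were named after their values were seen. Promoters came from RefSeq (GRCm38.p6), with motifs counted per window, and no deposited coordinates were used. Python 3.11.15, numpy 2.4.6, pandas 2.3.3 and matplotlib 3.10.9 were used.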

Additional observations from a re-analysis of the deposited data

Results flagged for a closer look

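Of the 9 genes, 2 had ratios past 2-fold in opposite directions at the 2 stages. The values are ratios of means, and the difference between the stages was not tested. Ly6d was lower in A than in B at day 6 (log2 ratio −2.05) and higher in A at parturition (1.09). Defb1 in A was above AABB at day 6 (2.02) and below it at parturition (−2.32). Defb1 in BB was likewise above AABB at day 6 (2.10) and below it at parturition (−2.76).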

How the results depend on the processing

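No paired analysis was possible because the tables hold 1 mean per genotype and no value per sample, and for the same reason leaving out each replicate was not run. Over the 9 genes, 28 counts were recomputed under up to 6 alternatives (166 values), of which 151 stayed within 1.5 times the count given in the report. Of 303 values for 54 ratios of single genes, 298 stayed on their side of 2-fold. Some of these values could not change. Removing the filter alters none, since counts cover all 9 genes, and it gave 28 of the 151 and 54 of the 298. The floor of 5 FPKM alters no ratio and gave 33 of the 298. No ratio past 2-fold changed direction, but 4 ratios near 0 changed sign: Cyp2e1 in A over B with luminal scaling at day 6 (0.15) and at parturition without scaling (−0.03) or at a constant sum (−0.07), and in AB over BB Ido1 at day 6 with luminal scaling (0.04) and Crym at parturition at a constant sum (0.05). With scaling by luminal markers, 5 genes in A and 4 in AB were above AABB at day 6 (3 and 0 in the report), and 4 were below Null in B (7). A pseudocount of 0.1 gave 5 above AABB in A and 2 in AB at day 6, 6 genes apart between AB and A at day 6 (3), and 5 above AABB in A at parturition (3). Single ratios that crossed 2-fold were Fam25c in A over B with luminal scaling (−0.96 at day 6, −0.99 at parturition) and, with a pseudocount of 0.1, Syt8 in A over B at day 6 (−1.74), Ache in AB over BB at day 6 (1.47) and Syt8 in AB over BB at parturition (1.03). A floor of 5 FPKM in 2 columns drops low genes from the count. It left 5 below Null in BB (8) and 3 apart between A and B (5) at day 6, and at parturition 5 above AABB in Null (8), 2 below Null in B (4), 4 in A (7), 5 in BB (8) and 5 in AB (8), and 3 that did not increase with alleles (7). Ratios among groups near or under 1 FPKM, as for Syt8, Ache and Spink3 at parturition, depend on the pseudocount, and without values per mouse no spread can be set beside any difference.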

Other observations

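Several genes outside the 9 also had high ratios of Null to AABB at parturition, and they fall into muscle genes and others. The muscle genes Atp2a1 (337 FPKM in Null against 8.61 in AABB), Myh4 (431 against 13.6), Pygm (98.4 against 3.85) and Acta1 (799.7 against 38.1) were among the 10 highest, and each was under 5 FPKM in AB and BB. The pleiotrophin gene Ptn was at 143 FPKM in Null, 39.9 in A, 139 in B, 7.09 in AB, 17.3 in BB and 3.14 FPKM in AABB, with Null and B level and well above the rest. Fcgbp, a mucus-associated gene, was higher in A (276) and B (189) than in Null (91.5) and was at 3.64 FPKM in AABB. Tmem45b was at 104.3 FPKM in Null, 2.80 in A and 2.61 in B, and at 20.5 in AB, 26.8 in BB and 4.16 FPKM in AABB.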
